A study of Homo sapiens with 21 samples.

Results

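SOX proteins bind the minor groove of DNA through a high-mobility-group box, and forkhead (FOX) proteins bind through a winged helix. Both families hold regulators of germ layers and of early organs: SOX17 and the FOXA factors of endoderm, FOXC1, FOXC2 and FOXF1 of mesoderm and vessels, FOXM1 of the G2 and M phases of the cell cycle, FOXO factors of the response to insulin and stress, and SOX5, SOX6 and SOX13 of the SOXD group. Members are all genes whose symbol has the form of a numbered SOX or lettered FOX gene in 6 deposited tables of an iPSC-to-cardiomyocyte differentiation, leaving out SOX2 and FOXH1. They are 38 genes, 12 SOX and 26 FOX, of 11851 genes with a listed transcript, and they have 53 listed transcripts of 21537. GENCODE 44 annotates 64 genes of these names, and the 26 others have no listed transcript, which is a statement about a test and not about their expression.

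Poly-A RNA came from 15 wild-type libraries of PGP1, an established line of human iPSCs, 3 each as iPSCs and as iPSC-derived mesoderm (M), cardiac mesoderm (CMes), cardiac progenitors (CP) and cardiomyocytes (CMs). Differentiation used the GSK3 inhibitor CHIR99021, then the Wnt inhibitor IWP4, and beating CMs were selected with lactate. The other 6 libraries were from beating CMs of a pair of UBE2B-/- lines of the same PGP1 cells, UBE2B-/-1 and UBE2B-/-2, 3 libraries each. By the paper's staining, only part of the beating UBE2B-/- cells were positive for NKX2.5 or TNNT2. Most UBE2B-/- cells still had brachyury at that time, and more cells were plated for these lines. The cell mix of the UBE2B-/- libraries may therefore differ from that of wild-type CMs. UBE2B is a ubiquitin-conjugating enzyme that deposits monoubiquitin on histone H2B (H2Bub1). The lines were picked as Cas9-edited colonies and made with different transfection methods, so each is 1 clonal line and the method differs between them. The 3 replicates of a group were plates started at different times.

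The tables list only transcripts whose q-value did not exceed 0.05 and hold no value per library. Sequencing depth is therefore unknown, and neither values per sample nor overlap between groups could be read. A level here is a group mean of estimated counts (3 libraries), recovered from the fitted effect and overall mean after the log transform with a pseudocount of 0.5. Its spread is the replicate SD on the log2 scale, pooled over the groups of a comparison. A gene was called when a listed transcript also changed by at least 1.79-fold (0.84 on the log2 scale). Where group means are under about 3 estimated counts, the log2 change depends on the pseudocount. In bulk RNA, fewer cells of a type and less RNA per cell cannot be told apart.

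The stage labels were read against markers. TBXT rose from iPSC to M by a log2 change of 9.02, ISL1 rose from M to CMes by 6.96, NKX2-5 rose from CMes to CP by 3.43, TNNT2 rose from CP to CM by 6.02, and POU5F1 fell by 10.4 from CP to CM. The targeted gene UBE2B was listed for UBE2B-/-1 through 1 transcript (log2 change −1.91, SE 0.53, q = 0.0113) and was not listed for UBE2B-/-2. In both UBE2B-/- lines, 6 of 8 cardiomyocyte markers were lower, TNNT2 and TTN among them, and 3 of 12 smooth muscle and fibroblast markers were higher (COL3A1, DCN, TCF21) with 1 lower (CNN1).

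At each stage transition, some members rose and others fell. From iPSC to M, 8 members were called, 3 higher and 5 lower, beside 2.87% of all transcripts tested (1.24% higher, 1.62% lower). From M to CMes there were 15, of which 12 were higher, beside 6.46% (3.81% higher, 2.65% lower). From CMes to CP, 7 rose and 7 fell, beside 6.43% (3.8% higher, 2.63% lower). From CP to CM only FOXP1 and FOXO6 rose while 12 fell, beside 15.2% (8.25% higher, 6.99% lower). Shares of genes were counted through transcripts that matched GENCODE 44 by identifier, for members and all genes alike, and so leave out FOXO6, called from CP to CM through unmatched transcripts. Of the 63 annotated protein-coding members, 12.7% were called from iPSC to M beside 7.22% of all protein-coding genes. The next transition had 23.8% beside 15.1%, and the step to CP had 22.2% beside 14.9%. From CP to CM the order turned, with 20.6% of members (13 genes) beside 30.3%. Over all 6 comparisons the shares were 50.8% (32 members, again without FOXO6) and 46.4%. The median size of a called member change was 3.25 on the log2 scale from M to CMes beside 1.74 over all called transcripts, and 2.45 beside 2.42 from CP to CM. These medians were the same with genes that had a group at 0 set to a bound against 3 counts per library. The calls rest on the normal distribution of the Wald test: with a t distribution on 4 residual degrees of freedom, 0, 0, 0 and 1 members were called at the 4 transitions in order (the last being FOXI3), beside 0, 0, 1 and 561 of all transcripts.

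**Figure D1:**
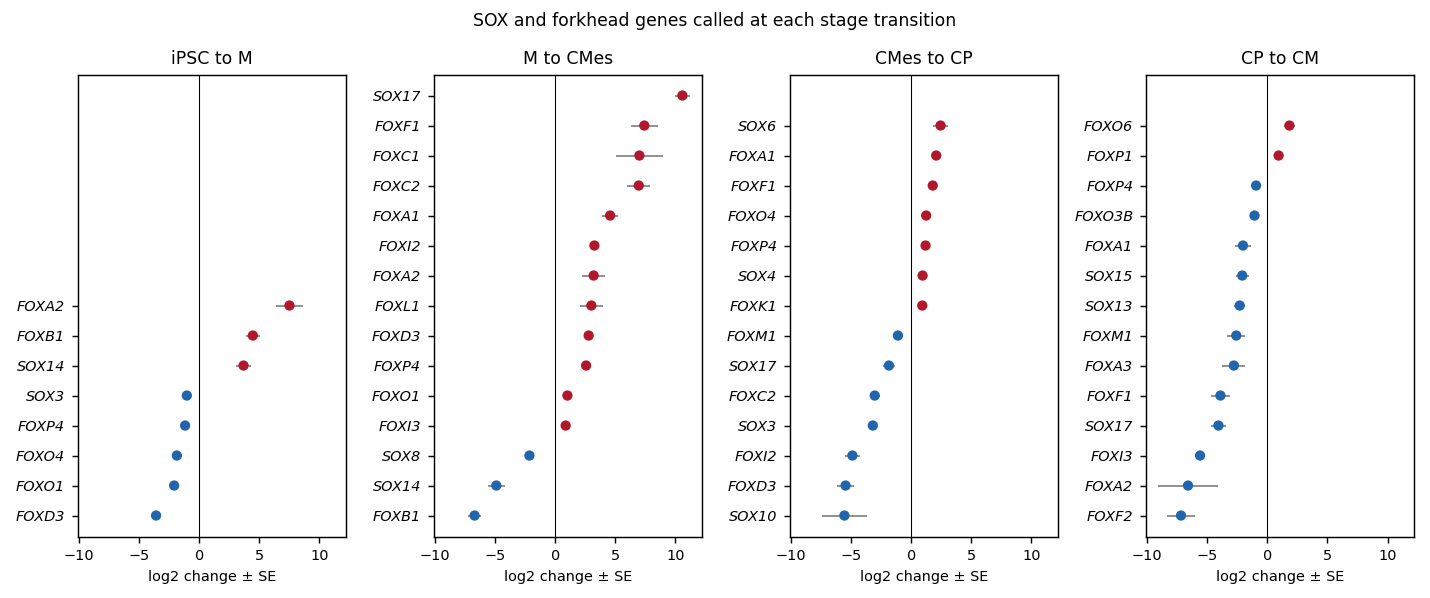
Log2 change (x axis, points, with SE as bars) of each SOX or forkhead gene called at each of the 4 stage transitions, red for higher and blue for lower in the later stage. Most points lie to the right from M to CMes (12 of 15) and to the left from CP to CM (12 of 14).

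From iPSC to M, the genes that fell included FOXD3, a repressor linked to pluripotent cells and neural crest, whose level went from 306 to 24.8 (log2 change −3.60, SE 0.30, replicate SD 0.23, q = 1.28e-30). FOXO1 went from 2112 to 494 (log2 change −2.09, SE 0.13, q = 2.51e-58) and FOXO4 from 913 to 250, both being forkhead factors that insulin signaling holds out of the nucleus. SOX3, a SOXB1 gene of neural and pluripotent cells, went from 365 to 178, a smaller change (log2 change −1.04, SE 0.33, q = 0.0413), and FOXP4 from 400 to 176. FOXB1, a forkhead gene of the neural tube and early mesoderm, went from 82.2 to 1819 (log2 change 4.46, SE 0.56, replicate SD 0.68, q = 4.66e-13), and SOX14, a SOXB2 repressor of neural cells, from 9.04 to 122. FOXA2 was at 0 in the iPSC libraries and 90.6 in M, at least 30.2-fold higher against a floor of 3 counts per library.

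Both FOXB1 and SOX14 fell again at the next transition. FOXB1 went from 1946 to 17.9 (log2 change −6.72, SE 0.52, q = 5.49e-35) and SOX14 from 131 to 3.85. SOX8, a SOXE gene, went from 296 to 66.1 (log2 change −2.16, SE 0.24, q = 2.97e-17). These were the 3 members that fell from M to CMes.

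The 12 members that rose from M to CMes hold regulators of endoderm and of mesoderm. SOX17, an SRY-related factor of endoderm and blood vessels, went from 0.565 to 1628, with a log2 change of 10.58 (SE 0.64, replicate SD 0.69, q = 2.41e-57). FOXA1, which opens chromatin in endoderm, went from 6.99 to 177 (log2 change 4.56, SE 0.65, q = 2.23e-10), and FOXA2 from 96.9 to 890 with a larger replicate SD of 1.15. FOXD3 rose again to 185 (log2 change 2.77, SE 0.33) and FOXI2 rose from 20.9 to 204. FOXP4 went from 189 to 1117 through its most abundant transcript (log2 change 2.56, SE 0.22, q = 3.64e-30), and its other 2 listed transcripts were also called higher. FOXO1 rose by 1.00 (SE 0.16) from 529 to 1061. In the same comparison, 5 of 11 endoderm markers were higher (HNF4A, APOA1, APOA2, CXCR4 and EPCAM) and 1 was lower (CDH1). The summed level of the listed transcripts went from 20063 in M to 12534 in CMes. That sum includes CDH1, the only gene of the list called lower, so its fall does not show the direction of the other 5. No endothelial marker of 12 was listed. The part of endoderm cells in the SOX17 and FOXA changes was not tested.

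The neighbours FOXF1, FOXC2 and FOXL1 on chromosome 16 rose together in this transition. On hg38 these genes occupy chr16:86510527-86515422, chr16:86566829-86569728 and, for the listed FOXL1 transcript, chr16:86578549-86583478, all on the plus strand. FOXF1, a factor of lateral plate and splanchnic mesoderm, was at 0 in M and 84.4 in CMes, at least 28.1-fold higher. FOXC2, a factor of paraxial mesoderm and vessels, went from 0.569 to 131 (log2 change 6.95, SE 0.94, q = 1.81e-11). FOXL1, a mesenchymal gene, went from 4.31 in M to 37.9 (SE of the log2 change 0.94, q = 0.0186), the lowest of the 3 levels in CMes. The 3 then separated: from CMes to CP, FOXF1 rose further to 293 (log2 change 1.78, SE 0.21), FOXC2 fell from 132 to 15.5 (log2 change −3.05, SE 0.42, q = 1.56e-11) and FOXL1 was not listed. On chromosome 6, FOXC1 and FOXF2 lie 214 kb apart. FOXC1 rose from 7.07 to 968 from M to CMes, with a replicate SD of 2.43 on the log2 scale (q = 0.00689), and FOXF2 was called only from CP to CM, where it went from 72.7 to 0, at least 24.2-fold lower.

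From CMes to CP, SOX4, a SOXC gene expressed widely in embryonic tissue, rose from 3706 to 7089 (log2 change 0.94, SE 0.10, q = 1.4e-18). SOX6, a SOXD gene known for cartilage and muscle fibre type, rose from 12.1 to 67.3. FOXA1 rose from 178 to 748 (log2 change 2.07, SE 0.18, q = 7.24e-29), FOXP4 from 1124 to 2551, FOXO4 from 350 to 822 and FOXK1, a forkhead regulator of metabolism and myogenic cells, from 1528 to 2868. FOXA2 went from 896 to 1510, a log2 change of 0.75 that was below the size limit. Among the genes that fell, FOXD3 went from 186 to 3.69 (log2 change −5.48, SE 0.73, q = 6.6e-12), FOXI2 from 205 to 6.36 and SOX3 from 170 to 17.9 (log2 change −3.21, SE 0.38, q = 7.73e-15). SOX17 fell from 1638 to 449 (log2 change −1.87, SE 0.47, q = 0.00119). SOX10, the neural crest and glial SOXE gene, fell from 304 to 5.88 with a replicate SD of 2.26, a spread that gave q = 0.0275. Of 11 neural and neural crest markers, 2 were higher in this comparison (TFAP2A and TFAP2B) and none lower. The proliferation factor FOXM1 fell from 1565 to 721 (log2 change −1.12, SE 0.16). Of the 11 endoderm markers 7 were higher and 1 lower, with listed levels summing to 7849 in CMes and 45410 in CP. Such sums cover the transcripts listed in that comparison, so the CMes sums of adjoining comparisons are of different transcripts. Of 16 genes known as FOXO targets, 8 were called higher here and none lower (TXNIP, PDK4 and FBXO32 among them). At the other transitions the counts were 1 higher and 0 lower from iPSC to M, 3 higher and 1 lower from M to CMes, and 5 higher and 2 lower from CP to CM.

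**Figure D2:**
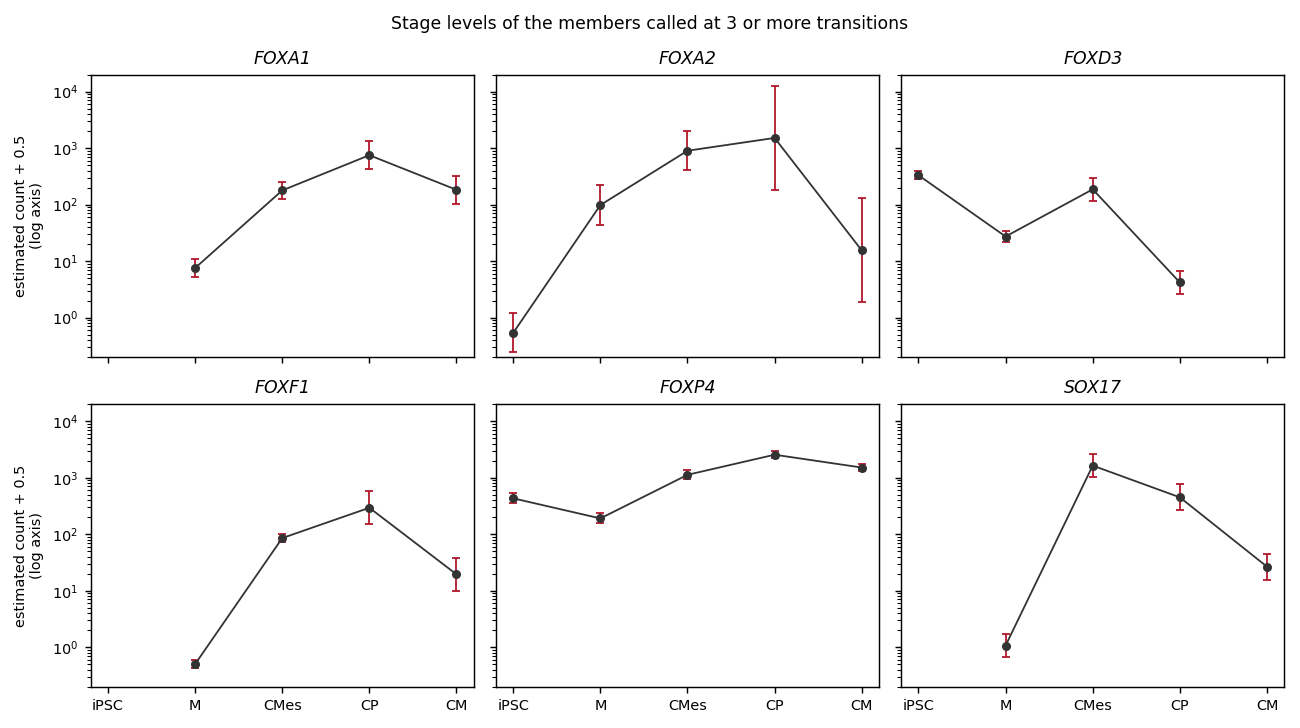
Level (y axis, group mean of estimated counts plus 0.5, log axis) over the 5 stages (x axis) of the 6 members called at 3 or more transitions, with bars for 1 replicate SD, the larger of the 2 comparisons where a stage enters both. SOX17 is highest in CMes, and FOXA1, FOXF1 and FOXP4 are highest in CP, as is FOXA2, whose step from CMes to CP was not called. Each SD is pooled over both stages of its comparison, so a bar need not be the spread of its own stage. For FOXA2 in CP the bar is the 3.05 from CP to CM, while the SD from CMes to CP was 0.20 (log2 scale). The last step of FOXP4 was called through another transcript. A missing point marks a stage where the transcript was not listed.

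From CP to CM, all 3 FOXA genes fell. FOXA1 went from 662 to 161 (log2 change −2.03, SE 0.67, q = 0.0173), FOXA3 from 424 to 60.8 (log2 change −2.79, SE 0.96, q = 0.0226) and FOXA2 from 1337 to 13.2, with a replicate SD of 3.05 on the log2 scale and q = 0.0442. From CMes to CP, which holds the same CP libraries, the replicate SD of FOXA2 was 0.20. Most of the spread of FOXA2 from CP to CM therefore lies among the CM libraries, and its CM level is uncertain. Falls that were larger beside their SE were those of FOXI3, a forkhead gene of placodes and ectoderm, from 573 to 11.2 (log2 change −5.61, SE 0.44, q = 9.39e-36), of SOX17 from 398 to 23.1 (log2 change −4.08, SE 0.62, q = 1.79e-09) and of FOXF1 from 260 to 16.8. SOX13 fell through 3 transcripts, the most abundant of them from 816 to 165 (log2 change −2.30, SE 0.46, q = 9.73e-06), and SOX15 went from 204 to 47.4. FOXO3B went from 165 to 77.9, and since this gene is a near copy of FOXO3, reads of the pair may have been shared. In the same comparison 6 of 11 endoderm markers were lower and 2 higher, with listed levels summing to 34893 in CP and 13855 in CM. Of 12 endothelial markers 3 were lower (KDR, TEK and EGFL7) and none higher, with sums of 8308 and 998. Of 8 pluripotency markers 7 were lower and 0 higher, with sums of 50448 and 1381. CMs were selected with lactate after the onset of beating, so stage and selection cannot be told apart in the falls from CP to CM. The part of pluripotent, endoderm and endothelial cells in these falls, those of FOXA, SOX17 and FOXF1 among them, was not tested.

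FOXM1 fell again, through 2 transcripts of nearly the same length that share their coding length, so their split is uncertain. The one with the higher mean went from 428 to 70.5 (log2 change −2.59, SE 0.75, q = 0.00468), and the other from 639 to 8.27 with a replicate SD of 2.54. Of 16 genes of the G2 and M phases known as FOXM1 targets, 14 were lower and none was higher, and the levels of their listed transcripts summed to 24413 in CP and 4944 in CM. At this step 30.3% of all protein-coding genes were called in either direction. From CMes to CP, where FOXM1 also fell, 4 of the 16 were lower, none was higher and 12 were not called, beside 14.9% of all protein-coding genes called.

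FOXP1 was the only member with 5 called transcripts, all of them higher in CM. FOXP1 is a repressor with a role in heart development. The transcript with the highest mean count, ENST00000615603, went from 602 to 1151 (log2 change 0.93, SE 0.16, q = 8.4e-08). It has no coding sequence in GENCODE 44. The coding transcript ENST00000475937 went from 329 to 976 (log2 change 1.57, SE 0.35, q = 1.04e-04). Per kb and on 1 scale, ENST00000475937 was the higher of these, at 176 beside 137 in CP and 522 beside 262 in CM. FOXO6 rose from 27.6 to 99.9, listed as 2 transcripts with identical values, neither of which matched GENCODE 44. FOXP4, a relative of FOXP1, was called lower through its transcript ENST00000409208, from 386 to 201 (log2 change −0.94, SE 0.32, q = 0.0193), while its most abundant transcript, at 2259 and 1340, missed the size limit with a log2 change of −0.75.

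The SOXC genes SOX4, SOX11 and SOX12 were among the higher members at the later stages. Genes were ranked by their highest transcript per kilobase, on 1 scale over the tables. SOX4 had the highest level of the members listed in CMes (761 estimated counts per kb), CP (1456) and CM (992). SOX12 came second in CM at 530, with FOXP1 at 522, closer than the replicate SD of FOXP1. SOX12 had 1 listed transcript there and FOXP1 had 5, another of them at 262 per kb. The rank is therefore of transcripts and not of whole genes. SOX11, at 9002 bases the longest SOX transcript listed, was at 198 per kb in CM. SOX11 and SOX12 were listed but never called: the log2 change of SOX11 was −0.40 between CMes and CP and −0.70 between CP and CM, while SOX12 had 0.64 between M and CMes (SE 0.12, q = 3.56e-06), then −0.49 and then 0.44. FOXJ2, FOXK2 and FOXN2 also were listed and never called, although FOXJ2 rose 1.61-fold from CMes to CP and 1.72-fold from CP to CM. Of the 22 members with a listed value in M, FOXB1 and the widely expressed repressor FOXN3 were highest at 682 and 679 per kb. That difference is well inside the replicate SD of FOXB1. Of the 10 members with a listed value in iPSCs, FOXN3 was highest at 931 per kb. SOX4 and SOX11 had no listed value in M or iPSCs, so their place at those stages is unknown.

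Comparison of UBE2B-/- with wild-type CMs asked which transcripts change when the deposition of H2Bub1 is disturbed. In UBE2B-/-1, 8 members were called, 7 higher and 1 lower, beside 3.89% of all transcripts tested (2.18% higher, 1.72% lower). In UBE2B-/-2, 6 were called and all were higher, beside 3.99% (2.46% higher, 1.53% lower). As shares of annotated protein-coding genes these counts are 12.7% and 9.52%, beside 9.59% and 9.58% of all such genes. In both lines 4 members were called, FOXA1, FOXP4, FOXS1 and SOX4, all higher, beside 2.43% (1.52% higher, 0.909% lower). By gene the share in both lines was 6.35% of members and 6.15% of all, which are near each other. Both lines were compared with the same 3 wild-type libraries, which also are the CM libraries of the CP to CM comparison. With a t distribution on 6 residual degrees of freedom no member was called in either line (0 and 0, as among all transcripts), although 10 of 10 and 8 of 8 called member transcripts had an unadjusted p under 0.05, and a q limit of 0.01 left 4 members in UBE2B-/-1.

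For 3 of these 4 genes RefSeq (GRCh38.p14) gave a window before a transcription start, and its 250 upstream bases are printed for these genes called in both lines. The FOXA1 window lies before the start of ENST00000250448, which was listed for neither line, and not before ENST00000545425, the transcript that was called. They lie at chr6:21593501-21593750 (plus strand), chr6:41546131-41546380 (plus strand) and chr14:37595250-37595499 (minus strand). Capitals mark the SOX motif ACAAAG, which reads CTTTGT on the opposite strand.
SOX4: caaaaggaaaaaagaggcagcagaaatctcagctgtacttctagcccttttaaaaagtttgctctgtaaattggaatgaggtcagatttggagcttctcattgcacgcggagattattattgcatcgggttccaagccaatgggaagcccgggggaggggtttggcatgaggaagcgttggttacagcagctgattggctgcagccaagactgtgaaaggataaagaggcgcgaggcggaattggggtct
FOXP4: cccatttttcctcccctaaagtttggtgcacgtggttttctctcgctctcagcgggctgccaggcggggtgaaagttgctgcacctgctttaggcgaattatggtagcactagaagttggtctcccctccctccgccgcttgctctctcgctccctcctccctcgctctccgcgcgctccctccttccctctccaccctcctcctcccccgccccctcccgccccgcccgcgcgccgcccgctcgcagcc
FOXA1: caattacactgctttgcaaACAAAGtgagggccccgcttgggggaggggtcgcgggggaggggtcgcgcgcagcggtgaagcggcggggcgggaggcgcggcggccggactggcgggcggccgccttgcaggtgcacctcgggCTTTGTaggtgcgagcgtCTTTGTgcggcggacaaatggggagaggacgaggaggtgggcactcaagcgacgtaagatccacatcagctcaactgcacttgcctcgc
The search covered, on both strands, the forkhead letters TGTTTAC, the SOX letters ACAATG or else ACAAAG, the GATA factor letters AGATAA, the TCF letters ATCAAAG and the T-box letters GGTGTGA. The FOXP4 window overlaps exons of the antisense gene FOXP4-AS1, and the FOXA1 window overlaps an exon of another FOXA1 transcript. FOXA1 held ACAAAG at 3 places, and no other motif of the 6 was in these 3 windows. Among windows of 25 members that had one (36 windows), 13.9% held ACAAAG, beside 13.7% of all 35116 windows, and 16.7% held the other SOX letters beside 9.29%. The forkhead letters were in 3 windows (8.33%) beside 2.98%, the GATA letters in 2.78% beside 9.17%, the T-box letters in 2.78% beside 2.76%, and the TCF letters in 0% beside 2.26%. The median G and C content was 66.6% for members and 58.0% for all. RefSeq entries were not in the table used for FOXA2, FOXC2, FOXF1, FOXL1, FOXM1, FOXN2, FOXS1, SOX10, SOX11, SOX14, SOX15, SOX17 and SOX8.

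FOXP4 and SOX4 were the abundant genes among the 4 and had the smallest spread. SOX4 was at 4938 in wild-type CMs, 11073 in UBE2B-/-1 and 10406 in UBE2B-/-2 (log2 changes 1.16 and 1.08, SE 0.21, replicate SD 0.18, q = 1.16e-05 and q = 6.65e-05). FOXP4 was at 1546, 3297 and 3163 through its most abundant transcript (log2 changes 1.09 and 1.03, SE 0.19, q = 6.84e-06 and q = 2.49e-05). Its other 2 listed transcripts had log2 changes of 1.45 and 0.96 in UBE2B-/-1 and of 1.35 and 0.75 in UBE2B-/-2, the last of these below the size limit.

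FOXS1, a single-exon forkhead gene of pericytes and neural crest derivatives, went from 0.994 in wild type to 69.4 in UBE2B-/-1 and 135 in UBE2B-/-2 (log2 changes 5.55 and 6.51, SE 1.68, replicate SD 2.06, q = 0.0266 and q = 0.00541). FOXA1 was called through the transcript ENST00000545425, whose start lies 987 bases downstream of the start of ENST00000250448, the transcript listed at the stage transitions, and which has no coding sequence in GENCODE 44. It was at 0 in wild-type CMs and at 57.9 in UBE2B-/-1 and 24.8 in UBE2B-/-2, at least 19.3-fold and 8.28-fold higher. ENST00000250448, the coding transcript, was listed for neither line. In the same comparison, listed smooth muscle and fibroblast marker levels summed to 10097 in wild type, 95640 in UBE2B-/-1 and 249274 in UBE2B-/-2, and of the 11 neural and neural crest markers only DCX was called in both lines, higher. No endoderm marker was called in both lines, but HHEX was higher in UBE2B-/-1 (log2 change 4.78) and EPCAM was lower in UBE2B-/-2. Of the 12 endothelial markers EGFL7 was higher in both lines, at 160 in wild type, 529 in UBE2B-/-1 and 520 in UBE2B-/-2, and KDR was higher in UBE2B-/-2. The part of other cell types in the changes of SOX4, FOXP4, FOXS1, FOXA1 and SOX17 was not tested.

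Members listed for 1 line had the same sign in the other, which by itself says little, as set out at the end of this paragraph. For those, the change in the other line was recovered from the variance columns of the fit, as 1 value where the wild-type mean is known and otherwise as 2 possible values. SOX17 went from 26.7 to 123 in UBE2B-/-1 (log2 change 2.18, SE 0.57, q = 0.00606) and to a recovered 39.2 in UBE2B-/-2 (log2 change 0.55). FOXM1 went from 81.3 to 348 in UBE2B-/-1 (log2 change 2.09, SE 0.65, q = 0.0325) and to a recovered 228 in UBE2B-/-2 (log2 change 1.48, not listed). Among the FOXM1 targets, only CDC25B and BIRC5 were called in both lines, both higher, each through a low transcript. FOXN3 was called in UBE2B-/-1 through ENST00000555353 (log2 change 5.98, SE 1.91, q = 0.0418), with 1.35 or 4.62 in UBE2B-/-2. The abundant FOXN3 transcript of the stage transitions, ENST00000345097, was listed for neither line, so a change of the whole gene is not shown. FOXJ3 was the only called member that was lower (log2 change −1.33, SE 0.44, q = 0.0499), with −0.84 or −0.49 in UBE2B-/-2. Both lines share the same wild-type libraries, which pushes the signs to match. The called transcripts of FOXN3, and of SOX5 and SOX6 below, were so low in wild type that a fall could hardly be seen. The recovered SOX17 change was smaller than its SE, and both possible FOXJ3 values were within 2 SE of no change. Whether these members change alike in both lines therefore cannot be read from the signs.

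The SOXD genes SOX5 and SOX6, cofactors of SOX9 in cartilage, were called in UBE2B-/-2 and not in UBE2B-/-1. SOX5 had a log2 change of 8.10 (SE 2.19, replicate SD 2.68, q = 0.00906), with 2.82 or 5.28 in UBE2B-/-1. SOX6 had log2 changes of 6.01 and 6.11 through 2 transcripts (SE 1.85 and 1.80), with possible values between 1.81 and 4.20 in UBE2B-/-1. With either possible value, the wild-type levels of these SOX5 and SOX6 transcripts were under 3 estimated counts, so the sizes depend on the pseudocount. The SOX6 transcript called from CMes to CP, ENST00000316399, was listed for neither line. Of 12 cartilage genes known to be bound by SOX9 with SOX5 and SOX6, COL9A3 was higher in both lines, COL11A1 in UBE2B-/-2, and none was lower. Of the FOXO targets, TRIM63, FBXO32 and PIK3R1 were lower in both lines and none was higher in both.

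**Figure D3:**
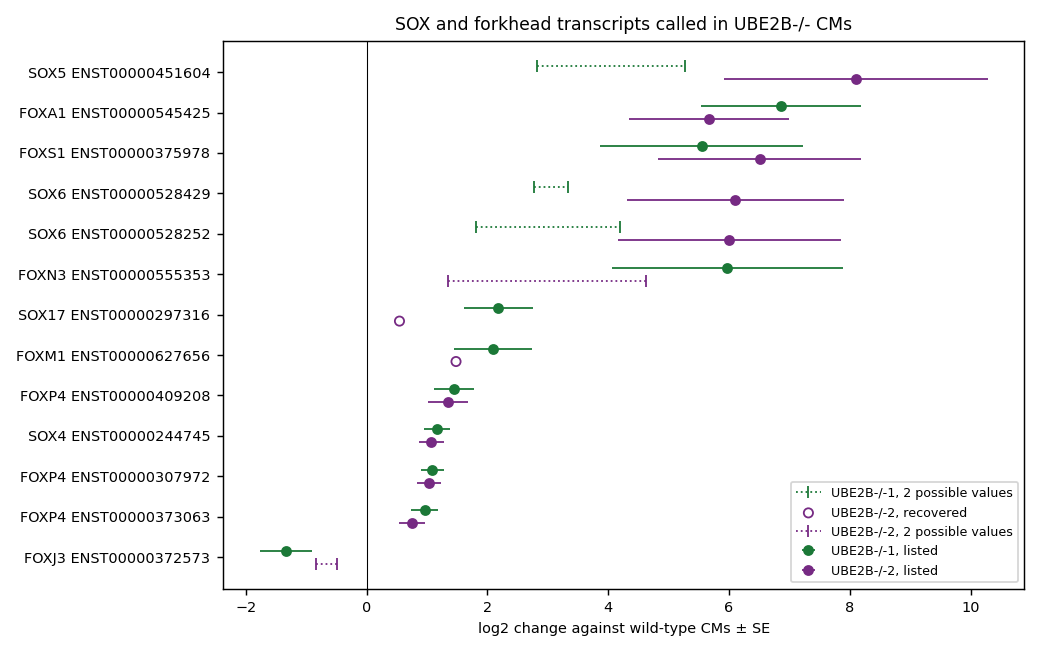
Log2 change against wild-type CMs (x axis, with SE as bars) of the transcripts called in at least 1 UBE2B-/- line, green for UBE2B-/-1 and purple for UBE2B-/-2. Filled points are listed values, open points are recovered values and dotted lines join the 2 possible values of an unlisted change. FOXP4 and SOX4 lie near 1 in both lines. FOXA1, FOXN3, FOXS1, SOX5 and SOX6 lie above 5 where listed, with wide bars and wild-type levels under 3 estimated counts.

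The difference between the lines was tested only for transcripts listed in both, of 3088 listed for UBE2B-/-1 and 3134 for UBE2B-/-2. Transcripts listed for 1 line only, where a difference is more likely, were left out. A low count of differences therefore follows in part from this choice and does not show that the lines are alike. Of the 1992 transcripts listed in both, 0 (0%) reached a q-value of 0.05 in the Wald test of the difference, and 29 had an unadjusted p under 0.05. The 6 member transcripts among them had p from 0.338 upwards. For SOX4 the 95% interval of the difference, UBE2B-/-2 minus UBE2B-/-1, was −0.50 to 0.32 on the log2 scale, and for FOXS1 it was −2.33 to 4.25, so a large difference in FOXS1 was not detectable. For SOX17, with the recovered value, the interval was −2.75 to −0.53, unadjusted for the number of transcripts.

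The representative transcripts of members differed from others in structure. Of the 34 members with a matched transcript at a stage transition, 9 had a single exon (26.5%), beside 3.32% of 11280 listed genes. SOX3, SOX4, SOX11, SOX12, SOX14, FOXC1, FOXC2, FOXD3 and FOXL1 are these 9.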

How the data were processed

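Libraries were grouped by the submitters' labels. The authors trimmed reads, quantified transcripts with Kallisto against hg38, took natural log values of normalized estimated counts plus 0.5 and ran the Wald test in Sleuth. Each deposited table gives a transcript's p-value and q-value, its effect b with an error, the mean of its natural log estimated counts, and variance estimates, which are deposited scores on the squared log scale. These are columns of the authors' fit, used here as deposited, because no values per library were in the tables. Depth per library, and with it the counting precision of each library, is therefore unknown. The p-values do not rest on the spread between plates alone. Their error combines the biological variance used in the test, which can be a value smoothed over level, with a technical variance. The SE can thus be far larger than the replicate SD, as for FOXF2 from CP to CM (SE 1.20, replicate SD 0.15, log2 scale). Calls required q up to 0.05 and, in absolute size, b no smaller than log2(1.5). The paper names a minimum fold change of 1.5, but b is a natural log, so the limit used here is 1.79-fold and is stricter. The numbers tested, 65457 to 71328 transcripts, were recovered from p, rank and q. Both UBE2B-/- tables come from 1 fit of 3 groups. Group means were recovered from b and the mean, and tables were placed on 1 scale through shared stages (offsets of at most 1.15-fold). A gene was represented by its called transcript with the highest mean. Values were printed for up to 7 called members per direction with the largest z, members called at 3 or more transitions or in both lines, and their group or cluster neighbours. Transcripts were matched by identifier without version to GENCODE 44 (51 of 53). The formulas were tested on simulated data. Python 3.11.15, pandas 2.3.3 and scipy 1.17.1 were used. The members and marker lists were chosen with earlier results of these data known, and some marker genes are not reported here.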

Additional observations from a re-analysis of the deposited data

How the results depend on the processing

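With a t distribution on 4 (transitions) or 6 (UBE2B-/- fit) residual degrees of freedom, where the Sleuth Wald test uses the normal one, called members were 0 between iPSC and M, 0 between M and CMes, 0 between CMes and CP, 1 between CP and CM, 0 in UBE2B-/-1, 0 in UBE2B-/-2 and 0 in both lines. Under that distribution the unadjusted p was under 0.05 for 8 of 8, 18 of 18, 16 of 16, 19 of 22, 10 of 10 and 8 of 8 called member transcripts in the same order. A q limit of 0.01 left 4 members in UBE2B-/-1. Counts under the other alternatives (a lower size limit, the own residual variance of a transcript, the transcript with the highest mean only, and the q limit of 0.01 elsewhere) were within 1.5 times those reported. Placing all tables on 1 scale moved a stage level by at most 1.13-fold. No paired analysis was possible because the tables hold no values per library, and for the same reason leaving out each replicate was not run. Whether changes with a large replicate SD (FOXA2 from CP to CM, FOXC1, SOX10, FOXS1, SOX5) rest on 1 library was not tested.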
